A study of Homo sapiens with 6 samples.

Results

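The laminin chains are a gene family measured here in MDA-MB-231, a human cell line of triple negative breast cancer (TNBC). The members were 9 chain genes given by symbol (LAMA1 to LAMA5, LAMB1 to LAMB3 and LAMC1), and 8 of them had a probe set of their own among the 18417 genes tested. LAMA3 was not analysed here, because the annotation used pairs no probe set with that symbol. The treated group was exposed to EC-70124, a multi-kinase inhibitor of the indolocarbazole type, at 500 nM during 24 h (3 arrays), and the control group was the same line without the drug (3 arrays). The study calls the samples of each group independent. All 6 arrays come from a single cell line grown in serum, so that the comparison describes this line at 1 dose and 1 time, and whether the controls received the solvent of the drug is not given in the sources used here. For each gene the deposited intensity (a model-based expression index, MBEI, on a linear scale) was used, and EC-70124 was compared with control on the log2 scale with limma, adjusted over all genes by the Benjamini-Hochberg method.

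Laminins are secreted as trimers of an alpha, a beta and a gamma chain, joined through a long coiled coil, and they form the sheet of the basement membrane to which epithelial cells attach. The alpha chain ends in globular domains that bind integrins, dystroglycan and other receptors, whereas the beta and gamma chains complete the trimer and, through their short arms, the network. The chain made from LAMC1 takes part in most laminins, together with LAMB1 or LAMB2 and an alpha chain such as LAMA1, LAMA2, LAMA4 or LAMA5. The chain made from LAMB3 instead pairs with the LAMA3 chain and another gamma chain in the laminin of stratified epithelia, which anchors hemidesmosomes.

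With EC-70124, LAMC1, LAMA5 and LAMB3 fell to 61.6%, 63.7% and 63.8% of control, and LAMA4 and LAMB2 fell less, to 81.7% and 83.9%. LAMA1 rose to 150.4% of control. LAMA2 and LAMB1 did not pass the test, at 101% and 98.6% of control. In all, 5 of the 8 measured chains fell and 1 rose at an adjusted p under 0.05 from limma, where 14.8% of all genes tested fell and 19.7% rose (34.5% in either direction). The median log2 fold change was -0.27 over the 8 chains, beside -0.0045 over all genes.

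The 250 bases before the annotated start of transcription are shown for the 3 chain genes that fell the most and for LAMB1, which did not pass the test, so that the start regions of genes with different behavior can be read side by side. Sequences are from RefSeq (GRCh38.p14), 5′ to 3′ on the strand of the gene, and LAMB3 is shown at the outer and at the inner of its listed starts. Capitals mark GGGCGG (the GC box, read on both strands as GGGCGG or CCGCCC) and TGANTCA (the AP-1 motif, which reads the same on both strands).
LAMC1, chr1:183023170-183023419, plus strand: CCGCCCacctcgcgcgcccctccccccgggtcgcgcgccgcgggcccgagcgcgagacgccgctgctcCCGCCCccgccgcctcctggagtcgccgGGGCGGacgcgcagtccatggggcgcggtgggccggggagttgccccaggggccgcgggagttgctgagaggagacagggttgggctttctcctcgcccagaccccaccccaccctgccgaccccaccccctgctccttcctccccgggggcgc
LAMA5, chr20:62367313-62367562, minus strand: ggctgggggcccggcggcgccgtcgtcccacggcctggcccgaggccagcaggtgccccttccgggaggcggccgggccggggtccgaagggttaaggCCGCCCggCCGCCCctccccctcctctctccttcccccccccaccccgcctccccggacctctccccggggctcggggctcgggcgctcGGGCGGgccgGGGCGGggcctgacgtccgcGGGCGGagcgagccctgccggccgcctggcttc
LAMB3, outer start, chr1:209652426-209652675, minus strand: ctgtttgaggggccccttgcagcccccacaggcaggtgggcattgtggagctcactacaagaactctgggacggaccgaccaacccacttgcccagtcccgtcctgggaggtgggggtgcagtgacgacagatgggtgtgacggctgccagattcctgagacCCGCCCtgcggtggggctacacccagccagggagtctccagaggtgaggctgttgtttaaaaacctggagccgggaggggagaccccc
LAMB3, inner start, chr1:209651375-209651624, minus strand: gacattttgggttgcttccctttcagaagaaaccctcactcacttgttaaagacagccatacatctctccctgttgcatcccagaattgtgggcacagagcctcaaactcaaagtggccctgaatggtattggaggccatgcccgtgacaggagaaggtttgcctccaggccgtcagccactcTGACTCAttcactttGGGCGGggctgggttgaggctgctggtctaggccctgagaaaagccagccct
LAMB1, chr7:108003162-108003411, minus strand: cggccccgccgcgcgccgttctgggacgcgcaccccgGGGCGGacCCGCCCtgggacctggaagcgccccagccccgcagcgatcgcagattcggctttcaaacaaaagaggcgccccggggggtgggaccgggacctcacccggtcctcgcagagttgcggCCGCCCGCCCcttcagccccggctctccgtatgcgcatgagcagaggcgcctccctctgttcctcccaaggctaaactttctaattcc
The window of LAMC1 holds 3 GC boxes, that of LAMA5 holds 5 and that of LAMB1 holds 4, with a GC content of 79.6%, 82.8% and 70.4%. In LAMB1 part of the boxes overlap each other. Each window of LAMB3 holds 1 GC box, and the inner one also holds 1 AP-1 motif. Of 35116 windows of this length over all genes, 42.6% hold a GC box, 6.6% hold an AP-1 motif and 10.7% hold TATAAA, which none of the windows shown has on either strand. GC boxes were thus found both in chains that fell and in LAMB1. Of the 9 chain genes, 8 had a window in the table, and LAMA1 had none.

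Within the alpha chains, which carry the receptor-binding end, changes went both ways. LAMA5 encodes the alpha chain found in most adult epithelial basement membranes. Its intensity in replicates 1, 2 and 3 was 2019, 1985 and 1529 with EC-70124, against 2759, 3057 and 2818 in control. All 3 treated arrays were below all 3 control arrays, and treated replicate 3 was the lowest. The means were 1845 ± 274 with EC-70124 and 2878 ± 158 in control (SD, n = 3 each), a log2 fold change of -0.65 (standard error 0.11, 95% interval -0.90 to -0.40, adjusted p = 0.00213 from limma). Without EC-70124 replicate 3 the log2 fold change of LAMA5 was -0.52.

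LAMA4, whose chain is best known from vessel walls and muscle, had intensities of 165, 159.8 and 158 with EC-70124, against 184, 199.8 and 209 in control. The groups did not overlap. The means were 161 ± 3.80 with EC-70124 and 197 ± 12.7 in control (SD, n = 3 each), and the log2 fold change was -0.29 (standard error 0.06, adjusted p = 0.00787 from limma).

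LAMA1, which encodes the alpha chain of embryonic basement membranes, was the member that rose. Its intensity was 320.1, 353 and 388 with EC-70124, against 240.0, 241 and 223 in control. Every treated array lay above every control array. The log2 fold change was 0.59 (standard error 0.08, 95% interval 0.41 to 0.77, adjusted p = 6.8e-04 from limma). LAMA1 is dim on these arrays, and with an offset of 50 added before log2 its log2 fold change was 0.50.

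LAMA2, whose chain joins muscle fibres and Schwann cells to their basement membrane, had intensities of 189.8, 193 and 218 with EC-70124, against 195, 213 and 187 in control. These ranges overlap. The log2 fold change was 0.01 with a 95% interval of -0.16 to 0.19 (adjusted p = 0.911 from limma). LAMA1, LAMA2 and LAMA4 all belong to the 30% of genes with the lowest mean intensity. The table holds no measure of background, and a dim intensity cannot be separated from it.

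**Figure D1:**
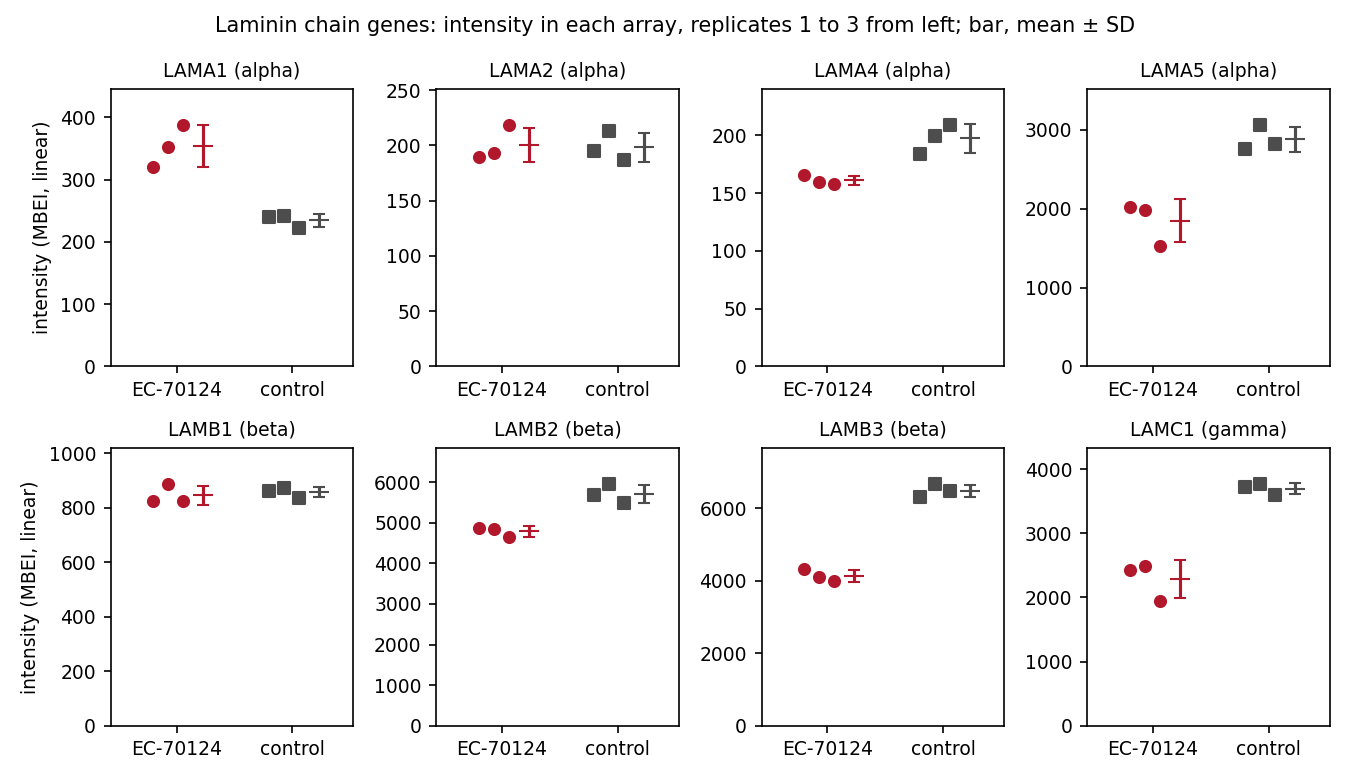
Intensity (MBEI, linear scale, y axis from 0) of each measured laminin chain gene in the 3 EC-70124 arrays (red circles, left) and the 3 control arrays (gray squares, right), replicates 1 to 3 from left to right in each group, with the mean ± SD beside them. The groups do not overlap in LAMA1 (higher with EC-70124) and in LAMA4, LAMA5, LAMB2, LAMB3 and LAMC1 (lower), and they overlap in LAMA2 and LAMB1.

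Among the beta chains the size of the change differed from member to member. LAMB3, the beta chain of the laminin beneath hemidesmosomes, had intensities of 4317, 4089 and 3990.4 with EC-70124, against 6309.7, 6653 and 6465 in control. The means were 4132 ± 167 with EC-70124 and 6476 ± 172 in control (SD, n = 3 each), and the groups lay far apart relative to their spread. LAMB3 had the lowest adjusted p of the members, with a log2 fold change of -0.65 (standard error 0.06, 95% interval -0.78 to -0.52, adjusted p = 7.8e-05 from limma).

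LAMB2, the beta chain of the neuromuscular junction and the kidney filter, had intensities of 4873, 4850.45 and 4641 with EC-70124, against 5697, 5948 and 5485 in control. All treated arrays were lower than all control arrays, by a smaller margin than in LAMB3. The log2 fold change was -0.25 (standard error 0.06, 95% interval -0.38 to -0.12, adjusted p = 0.00901 from limma).

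LAMB1, the beta chain of most early and many adult basement membranes, had intensities of 827, 886 and 825 with EC-70124, against 862, 874 and 838 in control. The treated arrays enclose the control range. The log2 fold change was -0.02 with a 95% interval of -0.15 to 0.11 (standard error 0.06, adjusted p = 0.817 from limma).

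LAMC1, the gamma chain shared by most laminins, had the largest fall of the 8 measured members. Its intensity was 2433, 2489.5 and 1946 with EC-70124, against 3723, 3759.9 and 3599.7 in control. Treated replicate 3 was again the lowest, and no treated array reached the control range. The means were 2289.6 ± 299 with EC-70124 and 3694 ± 83.9 in control (SD, n = 3 each), a log2 fold change of -0.70 (standard error 0.10, 95% interval -0.92 to -0.48, adjusted p = 7.3e-04 from limma). Without EC-70124 replicate 3 it was -0.59. The intervals of LAMC1, LAMA5 and LAMB3 overlap broadly, and their order is not resolved by these arrays.

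In LAMC1 and LAMA5, EC-70124 replicate 3 stood off from the other treated arrays, with a deviation from the treated mean of -0.23 and -0.26 on the log2 scale. In LAMA2 it lay above them (0.13). In LAMA1 the 3 treated arrays were evenly spaced, with replicate 1 at -0.14 and replicate 3 at 0.14. In LAMA4, LAMB1, LAMB2 and LAMB3 its deviation was between -0.05 and -0.03. Without this array 5 chains fell and 1 rose, as with all arrays.

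For a single gene, the exact permutation test of 3 against 3 arrays (two-sided) cannot give a p below 0.1. The exact p was 0.1 for the 6 members whose groups do not overlap and 0.7 for LAMA2 and LAMB1. With the unequal-variance statistic of each gene alone in place of limma, adjusted in the same way, LAMA4, LAMA5 and LAMC1 lost their call. Over all genes tested, 22.0% had all treated arrays below all control arrays and 25.6% had them above.

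**Figure D2:**
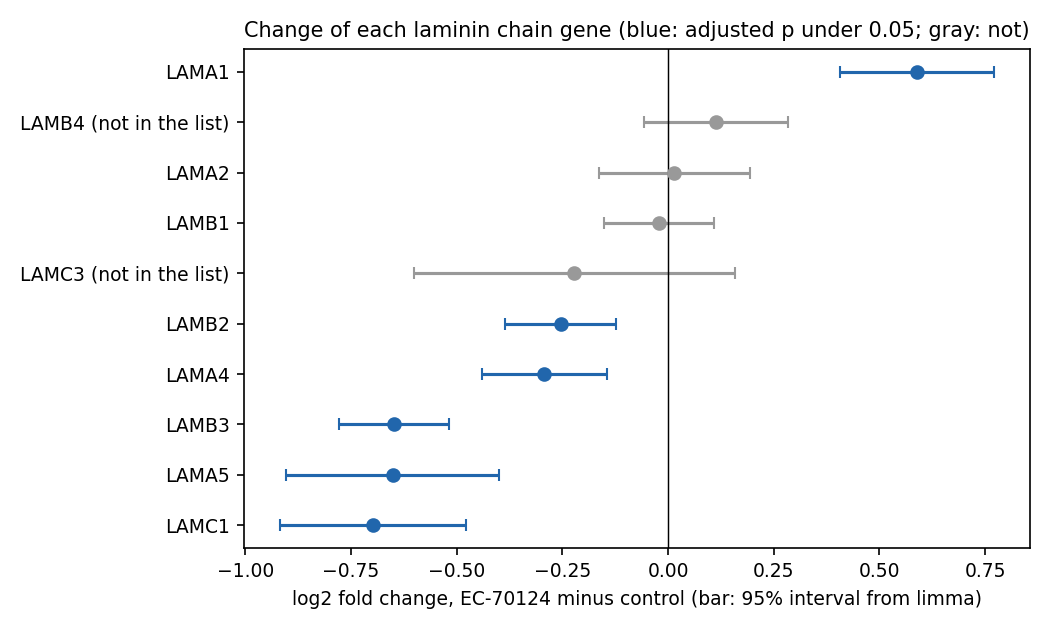
Log2 fold change (EC-70124 minus control, x axis) with the 95% interval from limma for the 8 measured laminin chains and for LAMB4 and LAMC3 (y axis), 3 arrays per group. The points run from -0.70 for LAMC1 to 0.59 for LAMA1, and the 6 blue ones passed an adjusted p under 0.05.

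Other laminin chain genes outside the list were LAMB4, which lies close to LAMB1 in the genome, and LAMC3. LAMB4 had intensities of 120.2, 118 and 119.7 with EC-70124, against 102, 108 and 122 in control, a log2 fold change of 0.11 (95% interval -0.06 to 0.28, adjusted p = 0.291 from limma). LAMC3, another gamma chain, had 1249, 1350.2 and 1609 with EC-70124, against 1419, 1424 and 2128 in control. Control replicate 3 stood apart, and the log2 fold change was -0.22 (95% interval -0.60 to 0.16, adjusted p = 0.358 from limma). Neither gene passed the test, and for LAMC3 the interval reaches as far down as -0.60. LAMB4 was dimmer than LAMA1, LAMA2 and LAMA4, with means of 119 with EC-70124 and 111 in control. Its intensity cannot be separated from background either.

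Whether chains of one class changed by different amounts was asked from the difference of their log2 values within each array. Levels of different probe sets are not comparable, but a difference between 2 of them that shifts with treatment shows unequal change of the measured intensities. Each alpha pair includes LAMA1, LAMA2 or LAMA4, which are among the 30% dimmest genes, and the part of background in the shifts of these pairs was not tested. All 9 pairs of measured chains within the alpha or the beta class were compared. In each of the 9 pairs the treated and control arrays did not overlap, with an exact permutation p of 0.1 (two-sided, also after adjustment over the 9 pairs), the smallest the design allows, so that none passed a threshold of 0.05. Between LAMB1 and LAMB3 the shift (LAMB1 minus LAMB3, EC-70124 minus control) was 0.63 on the log2 scale, with an SD over arrays of 0.09 with EC-70124 and 0.04 in control. Between LAMB2 and LAMB3 it was 0.40, with SDs of 0.04 with EC-70124 and 0.05 in control, and between LAMB1 and LAMB2 it was 0.23, with SDs of 0.05 with EC-70124 and 0.03 in control. Set against the control means, every treated array thus had the order LAMB3, LAMB2, LAMB1 from the most to the least lowered.

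Among the alpha chains the widest shift was that between LAMA1 and LAMA5, at 1.24 on the log2 scale (SD 0.35 with EC-70124 and 0.08 in control). The narrowest was that between LAMA2 and LAMA4, at 0.31 (SD 0.14 in each group). Between LAMA4 and LAMA5 it was 0.36, with SDs of 0.20 with EC-70124 and 0.10 in control.

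Chains that can share a trimer were set side by side as well, a comparison chosen after the values were seen and given without a test. LAMC1 minus LAMB1 was 1.56, 1.49 and 1.24 on the log2 scale with EC-70124, against 2.11, 2.10 and 2.10 in control. The 3 control arrays were nearly equal, and all treated arrays were lower, by 0.68 in the mean (shift of -0.68). LAMC1 minus LAMA5 was 0.27, 0.33 and 0.35 with EC-70124, against 0.43, 0.30 and 0.35 in control. These ranges overlap, with a shift of -0.05. In treated replicate 3, where LAMC1 and LAMA5 were each lowest, their difference stayed within the range of the control arrays. A low value in this array was not particular to these chains. With EC-70124, replicates 1, 2 and 3 had 1154, 1158 and 849 for HSPG2 and 2430, 2395 and 1815 for AGRN, both basement membrane genes. In the receptor genes SDC1 (1045, 1149 and 1270.5) and MCAM (1723, 1775 and 2136) replicate 3 was instead the highest.

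**Figure D3:**
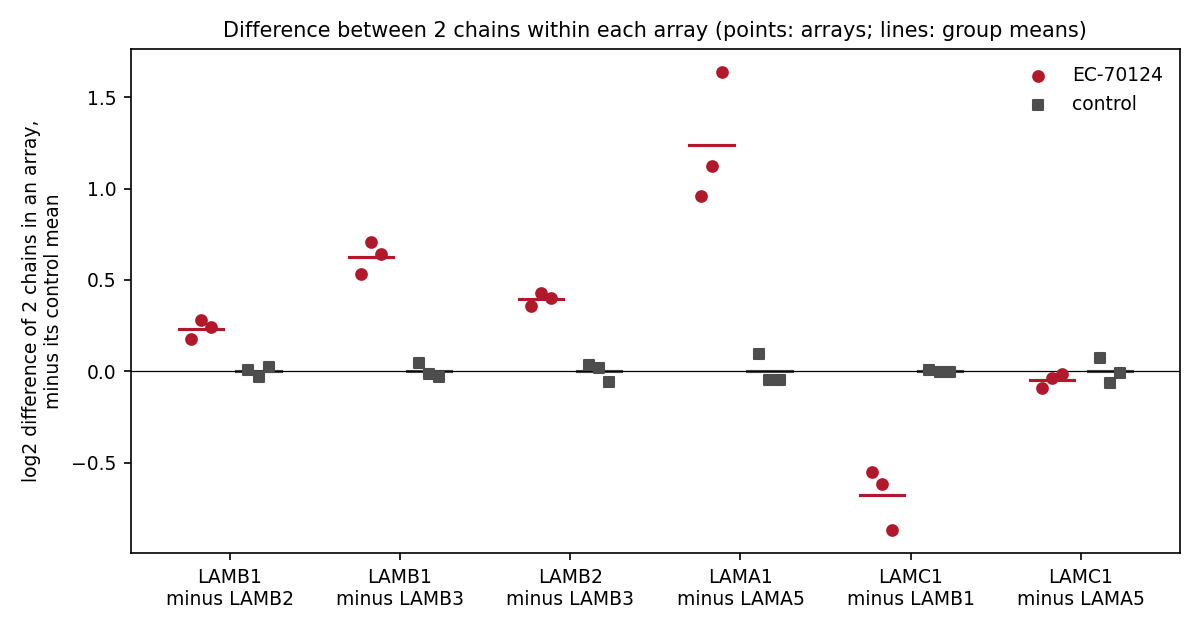
Difference of the log2 intensities of 2 chains in each array, minus its mean in the control arrays (y axis), for 6 pairs (x axis), with the 3 EC-70124 arrays in red (left) and the 3 control arrays in gray (right) and lines at the group means. The groups are apart in 5 of the pairs, by -0.68 for LAMC1 minus LAMB1 and 1.24 for LAMA1 minus LAMA5, and they overlap for LAMC1 minus LAMA5.

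The genes whose values followed those of LAMB3 most closely over the 6 arrays were MAPT (Pearson's r = 0.999, log2 fold change -0.57), LRP5 (r = 0.998, log2 fold change -1.13) and GPR155 (r = 0.998, log2 fold change -0.91). LAMB3 was taken because it had the largest absolute moderated t of the members. The 6 arrays form 2 groups, and a gene that separates these groups with a small spread has a high r by construction.

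Around the chains, genes of the cell surface receptors that bind laminin were examined. Of 10 receptor genes measured (13 listed), 9 fell and none rose (over all genes, 14.8% fell and 19.7% rose), with ITGA7 at a log2 fold change of 0.06 as the exception and a median of -0.53. ITGA6, an integrin chain that binds most laminins, had intensities of 3237, 3711 and 3435 with EC-70124, against 7843, 8001 and 8151 in control, a log2 fold change of -1.21. Its partner in hemidesmosomes, ITGB4, followed with -0.95, the syndecan SDC1 with -0.75 and the integrin chain ITGA2 with -0.66. Of 5 hemidesmosome genes measured (6 listed), of which ITGA6, ITGB4 and CD151 are also in the receptor list, all 5 fell, with a median of -0.30, and the linker genes PLEC and DST had log2 fold changes of -0.30 and -0.29. The adjusted p of the 5 hemidesmosome genes ran from 9.4e-06 for ITGA6 to 0.0171 for PLEC (limma). Among the 9 receptors that fell, the highest was 0.0273 for BCAM (limma).

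In the basement membrane, 7 of 18 partner genes fell, none rose and 11 did not pass the test, with a median log2 fold change of -0.13. The share called in either direction, 38.9%, is near the 34.5% over all genes. All of these calls were falls, however, and over all genes 14.8% fell and 19.7% rose. The falls were largest in COL4A1 (-1.59) and COL4A2 (-1.34), the main collagen IV chains, in the proteoglycan HSPG2 (-1.14) and in SPARC (-1.06). NID1, which links laminin to collagen IV, had a log2 fold change of 0.19 that did not pass the test (adjusted p = 0.0887 from limma). Of 9 genes of proteases that cut laminins or activate plasmin, which cuts them, 3 fell and none rose, with a median of -0.08. The share called in either direction, 33.3%, is again near 34.5%. All 3 calls were falls (14.8% of all genes fell), but so few calls do not make the direction a trait of this list, which was not tested. Those that fell were the matrix protease MMP14 (-1.24) and the plasminogen activators PLAT (-1.16) and PLAU (-0.71). Of 9 measured genes (13 listed) for the glycan through which dystroglycan holds laminin, 3 fell and 1 rose, with a median of -0.08, a share called of 44.4% against 34.5% over all genes. B4GAT1 (-0.74), POMGNT2 (-0.50) and POMGNT1 (-0.26) fell, and RXYLT1 rose (0.32, adjusted p = 0.0200 from limma), a rise that was lost after quantile normalization and without control replicate 1 or 3.

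**Figure D4:**
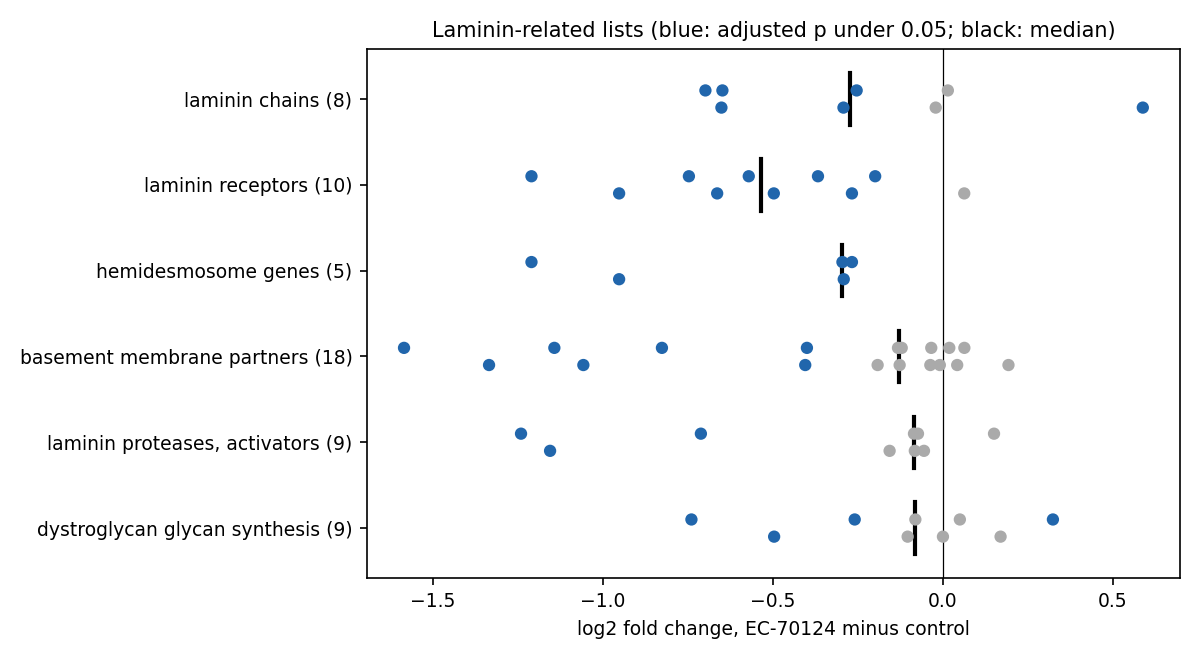
Log2 fold change (EC-70124 minus control, x axis) of each measured gene of 6 lists (y axis, with the number measured). Points are genes, in blue when they passed an adjusted p under 0.05 from limma and in gray when not. Black bars mark medians, which run from -0.53 in the laminin receptors to -0.08 in the proteases with the plasminogen activators and the dystroglycan glycan genes.

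The arrays were alike in brightness, with medians over all probe sets of 451 to 460.1 with EC-70124 and 437 to 444 in control. Of 5 endothelial, 4 leukocyte and 4 fibroblast marker genes, none passed the test. The summed intensity of the endothelial markers was 1466 to 1553 with EC-70124 and 1479 to 1559 in control, that of the leukocyte markers 1396 to 1529 with EC-70124 and 1314 to 1453 in control, and that of the fibroblast markers 658 to 712 with EC-70124 and 699 to 732 in control. Among 7 genes that describe the cell line, ESR1, PGR and ERBB2, which define the receptor status of breast cancer, did not pass the test. VIM (log2 fold change -0.07) and EPCAM (0.13, adjusted p = 0.218 from limma) did not pass it either. CD44 fell (-0.29) and CDH1 rose (0.19, adjusted p = 0.0490 from limma). CDH1 is dim, with means of 178 with EC-70124 and 156 in control, below those of LAMA2 (200 and 198). Its rise is thus that of an intensity that cannot be separated from background. Without a background measure none of these markers could be called absent. In such bulk samples, fewer cells with a transcript and less transcript per cell cannot be told apart.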

How the data were processed

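MDA-MB-231 mRNA was measured on Affymetrix Human Gene ST arrays, 1 per sample. In dChip, the authors applied a rank invariant normalization across arrays and deposited the MBEI, an intensity on a linear scale, for each probe set. For dChip, neither version nor background correction is given in the sources used here. The labels and the methods call the samples replicates, and the p-values measure the spread between these samples.

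Log2 was taken after raising intensities under 1 to that floor. Of 33252 probe sets, 19460 had 1 symbol, 1754 several and 12038 none in the platform annotation. Each gene was represented by its probe set with the highest mean, and each of the 8 chains measured has 1. Genes were tested with limma 3.58.1 in R 4.3.3 (lmFit and eBayes, two-sided, threshold 0.05, the Benjamini-Hochberg method). On simulated data for this comparison (18417 genes, 100 of them changed at each fold), 72% of genes changed 1.5-fold and 95% of those changed 2-fold were recovered, and 8 unchanged genes were called. Far fewer genes were changed there than the 6354 called in the data, so that these shares need not hold for the data.

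The members and lists were chosen with earlier results of these data known, the lists from textbook knowledge. From each context list, up to 4 members past the threshold with the largest change were named. All laminin chains were named too, as were the genes most like the chain with the largest absolute moderated t. ITGA7, NID1, CD151 and BCAM were named after their values were seen, as were the promoter motifs and the windows shown. The 15 alternatives included 2 other normalizations (quantile, cyclic loess), a filter on the 30% dimmest genes, an offset of 50 and the median of a gene's probe sets. The others were a trended robust variance, an unequal-variance t-test of each gene, a fold of at least 1.5, a replicate block and each array left out in turn. The study names a t-test only as the score of its gene set analysis. The number of arrays limits the precision, with a median standard error of 0.07 for a log2 fold change.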

Additional observations from a re-analysis of the deposited data

How the results depend on the processing

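LAMA1, LAMB1 and LAMB3 kept their direction and their side of the threshold under each alternative that measured them. LAMA1 did so narrowly in 2 of them. Its adjusted p was 0.0480 with the unequal-variance t-test, against 0.0095 for LAMB3, and its fold of 1.504 barely passed the fold of at least 1.5. LAMA2, which did not pass the test, changed sign after quantile normalization (log2 fold change -0.0086) and among the fits without 1 replicate, where it ran from -0.049 to 0.067. With the unequal-variance t-test LAMA4 (-0.29, adjusted p = 0.0849), LAMA5 (-0.65, adjusted p = 0.0960) and LAMC1 (-0.70, adjusted p = 0.0869) lost their call, in ranges over all alternatives of 0.00506 to 0.0849, 6.1e-04 to 0.0960 and 1.2e-04 to 0.0869. That test called 2 chains, 4 receptors and 3 hemidesmosome genes as lower, no dystroglycan glycan gene (0) as higher, and 1280 genes as lower and 1963 as higher in all. A fold of at least 1.5 left out LAMA4 (-0.29) and LAMB2 (-0.25), with 3 chains, 4 receptors, 2 hemidesmosome genes and 1 dystroglycan glycan gene lower, 0 of the last higher, and 596 genes lower and 1185 higher in all. Without the 30% dimmest genes LAMA1, LAMA2 and LAMA4 were not tested, so that 4 chains fell and 0 rose, and 2 dystroglycan glycan genes rose. With an offset of 50 also 2 of these rose, and after quantile normalization 0. Without 1 replicate, the rise in dystroglycan glycan genes was 0 (without control replicate 1 and without control replicate 3) or 1, and that in basement membrane partners 0 or 1 (1 without control replicate 1). The same fits called 4 or 5 hemidesmosome genes as lower (4 without EC-70124 replicate 1 or 2 or control replicate 2). They called 8 or 9 receptors as lower (8 without EC-70124 replicate 1 or control replicate 1, 2 or 3).

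Without 1 replicate, 5 chains fell and 1 rose each time, with log2 fold changes of -0.76 to -0.59 for LAMC1, -0.72 to -0.52 for LAMA5, -0.68 to -0.62 for LAMB3, -0.34 to -0.25 for LAMA4, -0.28 to -0.22 for LAMB2, -0.05 to -0.0031 for LAMB1 and 0.52 to 0.66 for LAMA1. With the replicate number as a block (replicate block), 5 chains fell and 1 rose, and 2662 genes fell and 3522 rose in all, against 2722 and 3632 without it. Samples of the same number were not treated as paired in the main fit. The correlations of their deviations from the group means were 0.13, -0.02 and 0.14, and not every sample correlated best with its own number. With so few arrays per group, these values cannot settle whether the samples were paired. Quantile normalization gave 3528 genes lower and 3113 higher, with the median of all genes at -0.05. Among the measured members, brightness limits LAMA1, LAMA2 and LAMA4 most, and LAMB4, outside the list, is dimmer still.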
